A study of Mus musculus with 2 samples.

Results

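The genes described here make, bind and remove retinoic acid: the dehydrogenases Rdh10, Rdh19, Aldh1a1, Aldh1a2 and Aldh1a3, the reductase Dhrs3, the binding proteins Crabp1 and Crabp2, and the hydroxylase Cyp26b1. They were picked by gene name with their measured levels in tooth and skin in view, so their differences are a description and carry no test. All 9 were on the array, out of 24323 named genes, each with 1 probe printed as 1 spot. Tooth and skin RNA of wild-type mice, at postnatal day 0, was labelled with 1 dye and hybridised to Agilent mouse whole-genome arrays, with 1 array for each tissue. The number of animals behind either array is not given in the labels. No genetic change and no treatment is given for either tissue. The labels' age is used here, although the methods of the study place the stage 1 day later.

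Retinoic acid is a small lipid made from vitamin A that acts as a signal in the nucleus. Retinol is first oxidised to retinal by retinol dehydrogenases, a step that reductases can run backwards, and retinal is then oxidised irreversibly to retinoic acid by the retinal dehydrogenases of the Aldh1a family. Cellular binding proteins carry the acid, the nuclear receptors of the Rar and Rxr families read it at paired half-sites in DNA, and cytochromes of the Cyp26 family hydroxylate it for removal. Retinoic acid is known to influence tooth initiation, enamel-forming cells, epidermal differentiation and hair follicle development.

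The readout for each gene is hybridisation to a probe of 60 bases. The middle 30 bases are shown for the probes of Rdh19, of its neighbours Rdh1, Rdh9 and Rdh7, and of Cyp26b1 and Cyp26a1. The retinol dehydrogenases and the Cyp26 enzymes come from gene families, and a reader may want to see that the probes differ.
Rdh19: gcaactgaagtaggaacaacaactttccat
Rdh1: cttttcactgagtgcataccatgtgtgtgt
Rdh9: gtgaccatccctccctgaaaactaactatg
Rdh7: gtgggatagaatcttgctaagataaacaac
Cyp26b1: tgtggtagcattaatgggtgatgtagtctc
Cyp26a1: gaggaatttaatcccgaccgctttatagtg
Among the probes of the 9 Rdh19 family genes around Rdh19, the longest exact run shared by any pair was 9 bases. The Cyp26a1 and Cyp26b1 probes shared a run of at most 5 bases, and the Aldh1a probes, Aldh1a7 included, one of at most 8. The Crabp1 and Crabp2 probes shared at most 5 bases. How strongly each probe binds transcripts of related genes was not measured.

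The tissue labels were checked against marker genes. All 7 enamel genes and all 6 dentin and bone genes were at least 2-fold higher in tooth, whereas 7 of 8 epidermal, 5 of 6 hair follicle, 5 of 5 melanocyte, 5 of 5 fat and 5 of 6 skeletal muscle genes were at least 2-fold higher in skin. Toward tooth there were also 2 of 3 cartilage genes (Col2a1 at least 43.3-fold), 2 of 4 endothelial genes (Cdh5 6.50-fold) and 1 of 5 dermal papilla genes (Wif1 10.6-fold). Of the other dermal papilla genes, 2 were at least 2-fold higher in skin (Corin at least 10.8-fold, Sox18 2.41-fold) and 2 were within 2-fold. Msx2, the remaining hair follicle gene, was 5.28-fold higher in tooth. Of 3 red cell genes measured, Hba-a1 was 2.34-fold higher in tooth and 2 were within 2-fold. Of 4 Schwann cell genes, Mbp was 2.03-fold higher in tooth, Sox10 9.27-fold higher in skin and 2 were within 2-fold. Of 8 housekeeping genes, 7 were within 2-fold and Ywhaz was 2.15-fold higher in skin. Summed intensities are given unscaled, while the 75th percentiles were 428 in tooth and 276 in skin. The summed intensity of the cartilage markers was 1601 in tooth and 95.8 in skin. That of the endothelial markers was 13100 and 10530, mostly from Kdr (11729 and 10208), whose scaled difference was 0.43, toward skin. That of the dermal papilla markers was 29180 and 3059, of which Wif1 gave 27882 and 1694. The summed intensity of the muscle markers was 4984 in tooth and 30950 in skin, and that of the melanocyte markers was 984 and 47780. Krt5, a keratin of basal epithelium, differed by 0.94 (log2, skin minus tooth) and so was within 2-fold. The samples are whole tissues, in which fewer cells of a type and less RNA per cell cannot be told apart, and the part that these cell types have in the differences below was not tested.

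Differences are given as skin minus tooth on the log2 scale, after each array was scaled to its 75th percentile. A negative value is higher in tooth. The extraction software placed all 9 genes well above background on both arrays, and none was saturated. On the skin array it also gave that call to 1 of the 308 negative-control spots, so the call alone does not set a dim skin spot apart from background. 6 were at least 2-fold higher in tooth, 1 was at least 2-fold higher in skin and 2 were within 2-fold. Among all 17409 genes well above background on at least 1 array, 15.5% were at least 2-fold higher in tooth and 14.2% in skin. Since these same differences were in view when the genes were picked, nothing is read from the comparison. Their median difference was -2.86, beside -0.04 for all genes, whose quartiles were -0.58 and 0.47.

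**Figure D1:**
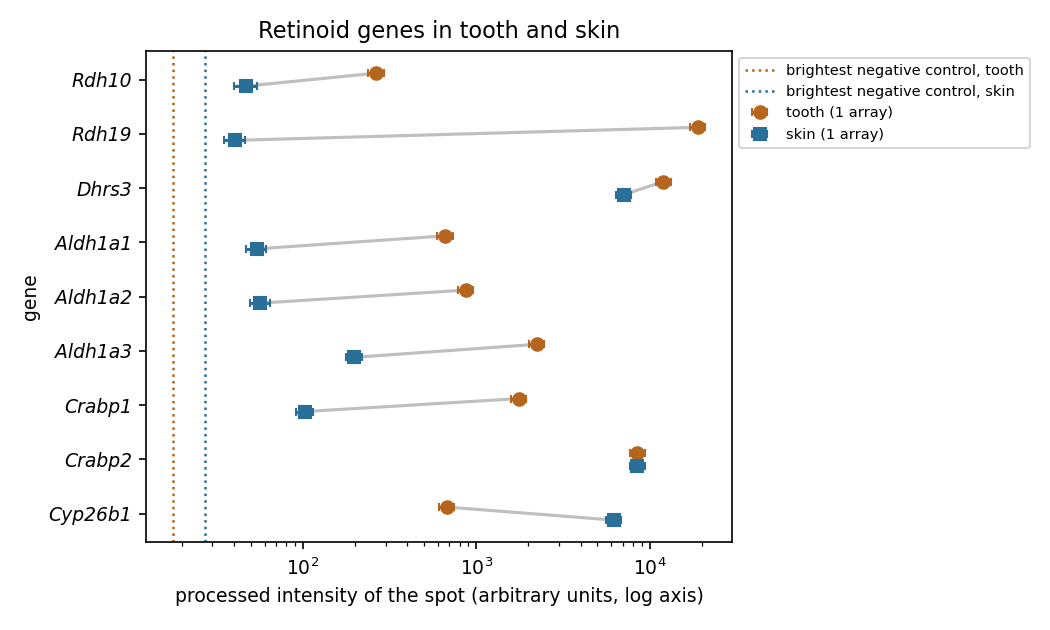
Processed spot intensity (arbitrary units, log axis) of each gene on the tooth array (circles) and the skin array (squares), with bars for the error estimated by the extraction software and dotted lines at the brightest negative-control spot (17.8 in tooth, 27.0 in skin). Rdh19 spans the widest gap, Crabp2 lies at nearly the same intensity on both arrays, and Cyp26b1 is the gene with the brighter skin spot by over 2-fold.

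**Figure D2:**
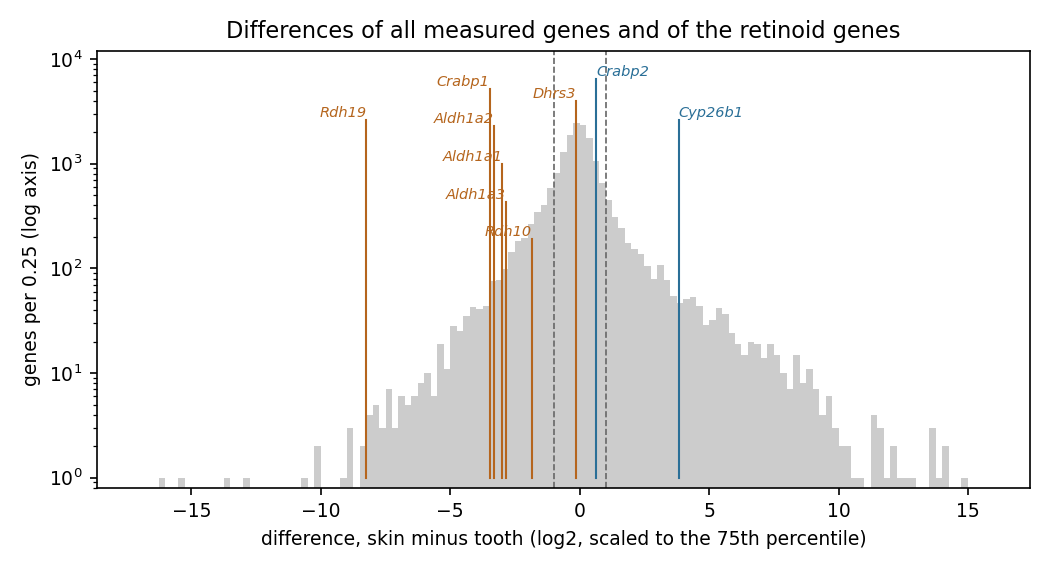
Histogram of the difference (log2, skin minus tooth) of 17409 genes, with a log axis for the number of genes and lines for the 9 retinoid genes. Dashed lines mark a 2-fold difference, and Rdh19 at -8.24 stands in the far tooth tail.

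The first step, oxidation of retinol, was represented by Rdh19 and Rdh10. Rdh19, a short-chain dehydrogenase named for retinol oxidation, had an intensity of 19040 ± 1904 in tooth and 40.6 ± 5.83 in skin, where ± is the error the software estimated for the spot. The scaled log2 levels were 5.48 and -2.77. The difference of -8.24 ± 0.25 was a 302-fold higher signal in tooth. It ranked first toward tooth among the 15271 genes measured on both arrays, ahead of the bone matrix gene Bglap (-7.96) and the collagen prolyl hydroxylase subunit P4ha3 (-7.65). Genes not well above background in skin were left out of this ranking. They include the enamel genes Amelx and Ambn, at least 16383-fold and 9604-fold higher in tooth, so Rdh19 is not the most tooth-high gene of all. The skin spot was 1.5 times as bright as the brightest of 308 negative controls on that array, so the skin end of this fold lay close to background. Rdh19's probe is at chr10:127298097-127298156 on the plus strand (mm9, the build of all probe positions here).

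Rdh10, the enzyme known for most retinol oxidation in the embryo, had a smaller difference than Rdh19. Its intensity was 265 ± 26.9 in tooth and 47.1 ± 7.04 in skin, and the difference of -1.86 ± 0.26 was 3.63-fold. The skin spot was 1.74 times the brightest negative control. With another background correction, normexp, the difference was -0.94 and no longer reached 2-fold. The probe lies at chr1:16122062-16122121 (plus strand). Dhrs3, a reductase that returns retinal to retinol, was bright in both tissues, at 12022 ± 1202 in tooth and 7104 ± 710 in skin. Its scaled levels were 4.81 and 4.69 and its difference was -0.13 ± 0.20, which is within the software error. Its probe is at chr4:144517485-144517544 (plus strand).

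The 3 retinal dehydrogenases, which make retinoic acid itself, were each higher in tooth, by 7.27-fold to 9.88-fold. Aldh1a2, the main enzyme of the early embryo, read 869 ± 87.0 in tooth against 56.8 ± 7.43 in skin, for a difference of -3.30 ± 0.24. Aldh1a1 read 663 ± 66.5 and 54.1 ± 7.23, a difference of -2.98 ± 0.24. Aldh1a3 read 2227 ± 223 and 198 ± 20.2, a difference of -2.86 ± 0.21. The gaps between neighbouring differences in this group were 0.32 and 0.12, smaller than their software errors of 0.34 and 0.32, so the enzymes are not set in an order. In skin the Aldh1a3 spot was 7.31 times the brightest negative control, whereas those of Aldh1a1 and Aldh1a2 were 2.0 and 2.1 times. The folds of Aldh1a1 and Aldh1a2 therefore rest on dim skin spots, and that of Aldh1a3 on a clearer one. The probes are at chr9:71143931-71143990 for Aldh1a2, chr19:20717764-20717823 for Aldh1a1, both on the plus strand, and chr7:73535785-73535844 on the minus strand for Aldh1a3.

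The binding proteins differed from each other. Crabp1, a cytoplasmic protein that binds retinoic acid, read 1766 ± 177 in tooth and 102 ± 11.2 in skin, which is a difference of -3.48 ± 0.21 or 11.1-fold. Its probe is at chr9:54616192-54616251 (plus strand). Crabp2, which delivers the acid to nuclear receptors, read 8515 ± 852 in tooth and 8510 ± 851 in skin. With unequal 75th percentiles of 428 and 276, these near-equal intensities became scaled levels of 4.31 and 4.95 and a difference of 0.63 ± 0.20, 1.55-fold toward skin. When spike-in transcripts set the scale, this difference was -0.00011, so the direction of Crabp2 depends on the scaling. Its probe is at chr3:87757207-87757266 (plus strand).

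Cyp26b1, which hydroxylates retinoic acid, was the gene of this group that stood higher in skin by over 2-fold. Its intensity was 677 ± 67.9 in tooth and 6210 ± 621 in skin, and both spots were far above the negative controls. The scaled levels were 0.66 and 4.49, and the difference of 3.83 ± 0.20 was 14.2-fold. It ranked at place 257 from the skin end of the 15271 genes, between Bspry (3.82) and the transcription factor gene Sp5 (3.83). The probe lies at chr6:84521952-84522011 (minus strand).

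Ordered by difference, Rdh19 was separated from Crabp1, the next gene, by 4.77 with a software error of 0.33. Crabp1, Aldh1a2, Aldh1a1 and Aldh1a3 followed at ranks 140, 167, 226 and 256 toward tooth, and no neighbouring pair among them was separated by more than its software error. Rdh10 followed at rank 718, 1.0 ± 0.33 from Aldh1a3. Dhrs3 stood 1.73 ± 0.33 from Rdh10, Crabp2 0.76 ± 0.29 from Dhrs3 and Cyp26b1 3.20 ± 0.29 from Crabp2. These errors come from single spots and leave out dissection, RNA preparation, labelling and the spread between animals. The genes nearest in difference were Fam20c, Serpine2, Dlx1 and Sytl4 (-3.49 to -3.46) for Crabp1 and Cd55b, Ecel1, Mxra8 and Mdk (-3.33 to -3.29) for Aldh1a2. They were Smad6, Tmem150a, Apba1 and Slc20a2 (-2.99 to -2.98) for Aldh1a1, Kbtbd11, Gprc5b, Adcy2 and Cxcl12 (-2.87 to -2.85) for Aldh1a3, and Scd2, Amot, Camp and Larp6 (-1.86 to -1.85) for Rdh10. The muscle troponin Tnnt3 (3.82) and Il6ra (3.84) were the next nearest to Cyp26b1. Likeness here is closeness of 1 difference between 2 arrays.

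**Figure D3:**
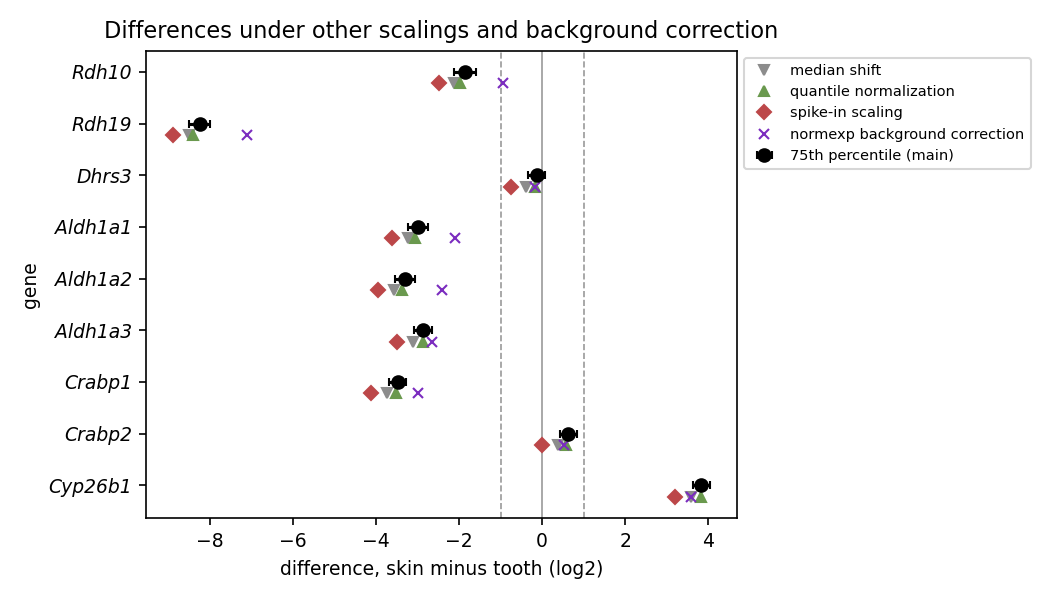
Difference of each gene (log2, skin minus tooth) at the 75th percentile scaling, with the software error as a bar, and below it the values after a median shift, quantile normalization, spike-in scaling and normexp background correction. Dashed lines mark 2-fold, and Rdh10 under normexp (-0.94) is the case that moves inside them.

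Scaling to spike-in transcripts moved the median gene by -0.63 and a median shift by -0.25, toward tooth. Of 81 differences over the 9 genes and 9 alternative settings, 80 had the sign given above, the exception being Crabp2 with spike-ins. Much of this was fixed in advance, because each gene has 1 probe, well above background on both arrays. Averaging probes, changing the detection filter or setting dim values at a bound therefore returned the same value. The authors' table moved the median gene by only 0.018. Median shift, quantile normalization, spike-in scaling and normexp were the settings that could move a gene further. Rdh19 ranged from -8.87 to -7.11 and Cyp26b1 from 3.20 to 3.85. The retinal dehydrogenases kept at least 2-fold under every setting run, at -3.94 to -2.40 for Aldh1a2, -3.62 to -2.08 for Aldh1a1 and -3.49 to -2.65 for Aldh1a3, as did Crabp1 at -4.11 to -2.99. Dhrs3 ranged from -0.76 to -0.11.

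The surroundings of Rdh19 were examined because several related dehydrogenases lie beside it. This window was chosen after the values had been seen. Within 200 kb of the Rdh19 probe, 16 named genes had a probe, and 14 of them were clear of background on 1 array or both. The window held 9 genes of the short-chain dehydrogenase family. Rdh19 was the 1 family gene higher in tooth, 6 passed 2-fold toward skin, and Rdh16 and Hsd17b6 were dim, meaning not well above background, on both arrays. Rdh7, with its probe 23.0 kb from that of Rdh19, read 184 in skin and 16.1, not well above background, in tooth, and so was at least 15.2-fold higher in skin. Such a bound sets the bright value against the lowest signal called well above background on the dim array, or the dim value itself if higher. Rdh1 (71.5 in tooth, 815 in skin) was 17.6-fold higher and Rdh9 (111 and 342) was 4.76-fold higher in skin. Sdr9c7, an epidermal enzyme of lipid barrier formation, was at least 24.1-fold higher in skin, Rdh16f2 at least 6.91-fold and the pseudogene Rdh18-ps at least 4.86-fold. Outside the family, the neurokinin gene Tac2 had a bound of at least 8.20-fold toward tooth, or 6.31-fold against the brightest negative control, whereas Nemp1, Myo1a, Zbtb39, Gpr182, Prim1 and Naca were within 2-fold.

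**Figure D4:**
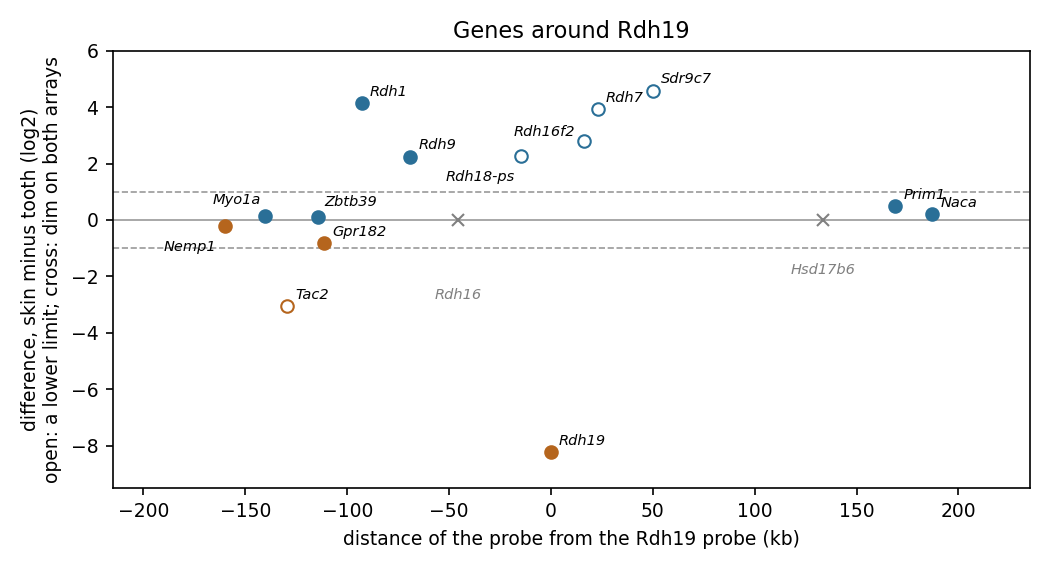
Difference (log2, skin minus tooth) of the 16 named genes with a probe within 200 kb of the Rdh19 probe, against distance in kb. Filled points were well above background on both arrays, open points are lower limits because 1 array was dim, and crosses were dim on both; Rdh19 at -8.24 lies among 6 family genes that are higher in skin.

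The rest of the retinoid pathway was described with a list of 47 genes by role, all on the array. In at least 1 tissue 38 were well above background, and 29 in both. Of the 38, 5 were at least 2-fold higher in tooth, 14 in skin and 19 within 2-fold, with a median difference of 0.52. With dim values set at their bound, 4 and 14 passed 2-fold. The tooth count was 8 with spike-in scaling and 3 with normexp. Of 15 other retinol dehydrogenases and reductases measured, 8 passed 2-fold toward skin, 7 were within 2-fold and none passed toward tooth, beside the 14.2% and 15.5% of all genes given above. The list was chosen with earlier results of these data known, so nothing is read from this comparison. With spike-in scaling 7 passed toward skin and 3 toward tooth, namely Rdh8 (-1.39), Adh5 (-1.12) and Rdh14 (-1.06). Rdh8 also passed narrowly with a median shift (-1.01) and with quantile normalization (-1.04). Rdh8 and Adh5 were dim in skin, so these values for them rest on dim spots. Their bounds toward tooth were only 1.22-fold and 1.40-fold, or 0.94 and 1.17 against the brightest negative control. With normexp their differences were 0.21 and 0.16, toward skin. Adh1, an alcohol dehydrogenase that oxidises retinol, read 3682 in skin and a dim 9.31 in tooth, a bound of at least 305-fold toward skin. Sdr16c5, a retinol dehydrogenase of epithelia, was at least 68.5-fold higher in skin, and its relative Sdr16c6 (299 in tooth, 4653 in skin) was 24.1-fold higher. Adh7 was at least 2.33-fold higher in skin, but its skin spot was only 1.04 times the brightest negative control. Rdh11 passed 2-fold narrowly (1.02) and was 0.39 with spike-in scaling. Rdh12, which was bright on both arrays, differed by 0.31, or by -0.32 with spike-ins. At the 75th percentile scaling, Rdh19 and Rdh10 were the retinol dehydrogenases at least 2-fold higher in tooth. With spike-ins this set gains Rdh14, which was measured on both arrays. Rdh8 and Adh5 join it only through dim skin values, and their bounds do not reach 2-fold. With normexp the set loses Rdh10.

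Among the retinal dehydrogenases, Aldh1a7, a close relative of Aldh1a1, read 473 in tooth and 486 in skin and differed by 0.67, and Aldh8a1 differed by 0.53 or, with spike-ins, by -0.10. Neither reached 2-fold, unlike the 3 named above. Among the hydroxylases, Cyp26a1 had an intensity of 9592 on the tooth array. On the skin array it was 5.34, which was not well above background, so the bound is at least 298-fold toward tooth. Against the brightest negative control on the skin array, an alternative chosen after seeing the data, it is at least 229-fold. This is the opposite direction to its family member Cyp26b1. Cyp26c1 was dim, at 48.5 in tooth and 5.32 in skin, a bound of at least 1.51-fold, or 1.16-fold against that control. Fabp5, a fatty acid binding protein that also binds retinoic acid, read 39780 in tooth and 82350 in skin, 3.21-fold higher in skin, beside near-equal Crabp2 and tooth-high Crabp1.

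At the brightest probe of each gene, 5 of 6 receptors were within 2-fold, with Rarb as the exception. Rara, Rarg, Rxra, Rxrb and Rxrg differed by -0.05 to 0.77 and Rarb by -3.04, 8.25-fold toward tooth. With spike-ins the 5 ran from -0.69 to 0.14. Another Rxra probe, also well above background on both arrays, gave 1.25, past 2-fold toward skin. Averaging the Rxra probes gave 1.01. Rarb read 1488 in tooth and 116 in skin. Of its other probes, one gave -2.91 but was dim in skin, and one was dim on both arrays. Of genes named for retinoid response, 6 of 8 were measured. Tgm2, a transglutaminase, was higher in tooth (-1.13). Rarres1 was 75.9-fold higher in skin and Meis2, a homeobox gene, 2.83-fold, though Meis2 was within 2-fold with spike-ins (0.87). Nrip1, Meis1 and Rarres2 were within 2-fold.

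Uptake and storage genes went both ways. Stra6, the membrane receptor for retinol carried in blood, was 3.12-fold higher in tooth, with its skin spot at an intensity of 33.9, and was within 2-fold with normexp (-0.59). Rbp2 was at least 21.9-fold higher in skin, Rbp7 was 3.54-fold higher and the carotenoid oxygenase Bco2 was 3.04-fold higher. Bco2 was within 2-fold with spike-in scaling (0.97) and with normexp (0.99), and Rbp7 was at 1.19 with spike-ins. Rbp4, the carrier of retinol in blood, and Dgat1 were within 2-fold. Ttr, Lrat, Bco1 and Stra6l were dim on both arrays.

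**Figure D5:**
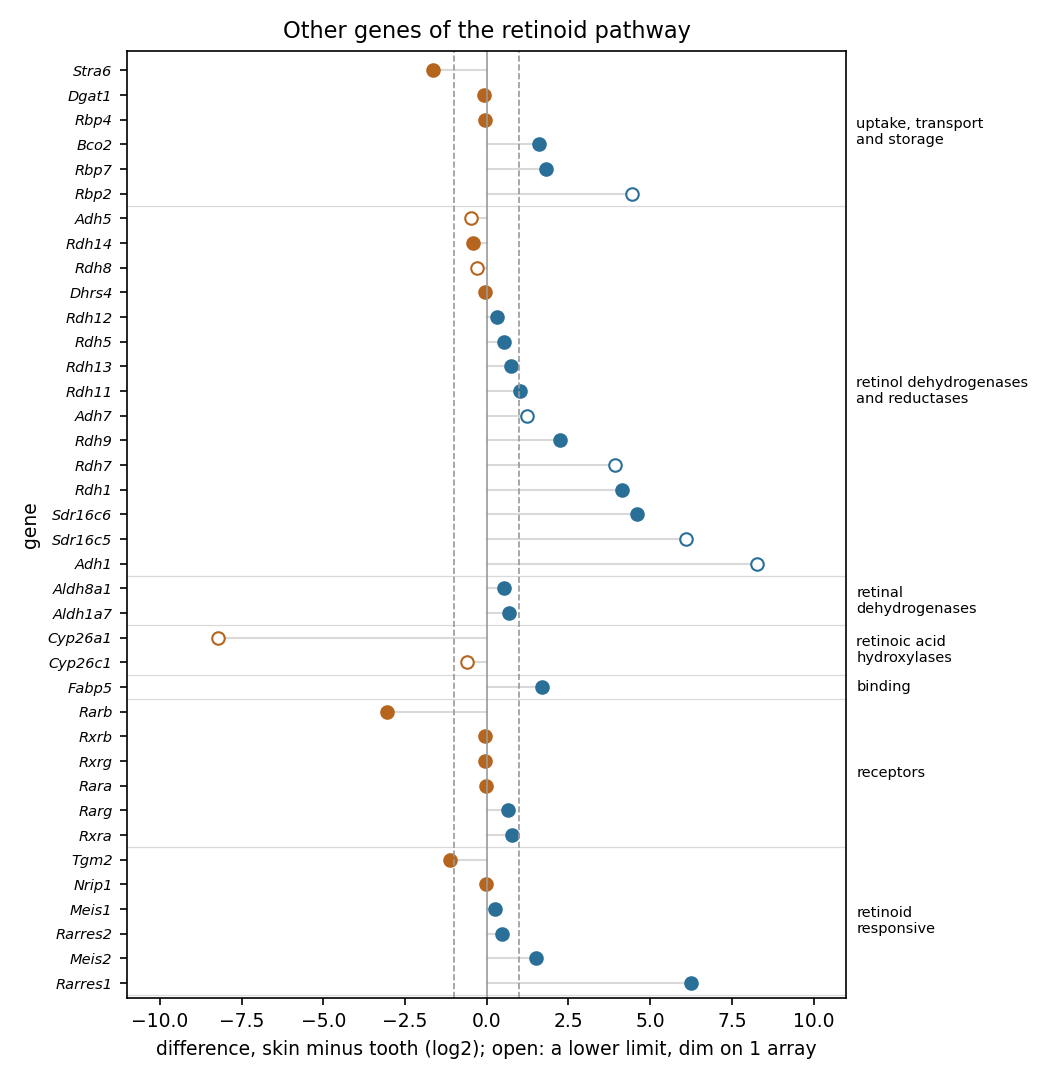
Difference (log2, skin minus tooth) of 38 other retinoid pathway genes, grouped by role. Filled points were well above background on both arrays, open points are lower limits, and dashed lines mark 2-fold; Cyp26a1 and Rarb stand toward tooth, and Adh1, Rarres1 and Sdr16c5 stand farthest toward skin.

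Promoters were searched for the paired half-sites that retinoic acid receptors are known to bind. The half-site in its best-known form is AGGTCA, and the form AGTTCA found in known response elements was accepted as well. Also accepted was the form GGGTCA. The remaining form searched was GGTTCA. Any pair of these forms counted when it was a direct repeat on either strand with 1, 2 or 5 bases between its half-sites, and a window could count for more than 1 spacing. The windows, from RefSeq (GRCm38.p6), ran from 250 bases before to 50 after each start site. The 5-base spacing was found in 32 of 32851 windows (0.0974%), the 2-base spacing in 88 (0.268%) and the 1-base spacing in 73 (0.222%). A window was given for Aldh1a1, Aldh1a2, Crabp1, Cyp26b1 and Dhrs3, 8 windows in all, and none held any of these repeats. A single half-site was in 1 of the 8 and in 43.7% of all windows. Among 58 windows for 40 of the other pathway genes, the 5-base repeat was found in 2, those of Cyp26a1 and Rarb. Both repeats hold AGTTCA, a form accepted because known response elements hold it. Such matches were therefore favoured in advance, and nothing is read from them beside the share of all windows. Cyp26c1 and Stra6, also among the pathway genes at least 2-fold higher in tooth, had windows without any of these repeats. The 1-base repeat was found in the window of Bco1, which was not measured above background. The 90 bases before the start site are shown for Cyp26a1 and Rarb, 5′ to 3′ on the gene's strand, with the repeat and its spacer in capitals.
Cyp26a1: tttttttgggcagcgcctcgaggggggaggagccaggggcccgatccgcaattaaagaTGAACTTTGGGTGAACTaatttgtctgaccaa
Rarb: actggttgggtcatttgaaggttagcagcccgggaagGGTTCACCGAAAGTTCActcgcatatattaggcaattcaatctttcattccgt
The Cyp26a1 stretch is chr19:37697718-37697807 (plus strand), with the repeat on the opposite strand from 32 to 16 bases before the start. The Rarb stretch is chr14:16575477-16575566 (minus strand), with the repeat from 53 to 37 bases before the start. A match is a run of letters in these windows and not evidence of binding, and no match says only that these letters were not in the window.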

How the data were processed

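Per the file headers, the deposited intensities came from Agilent Feature Extraction (version 10.7.3.1), which had subtracted background, removed trends within each array and estimated an error for each spot. The authors also deposited a table in which each value is a ratio of the processed intensity to 1 factor per array (430.7 for tooth, 274.5 for skin). The study's methods named GeneSpring, a low-signal filter and a percentile shift.

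From each array's log2 processed intensity the 75th percentile over non-control probes was subtracted, and skin minus tooth was taken. Of 33182 named probes, 27234 (82.1%) were named through a RefSeq accession. The brightest probe stood for a gene, and a probe was well above background when over 50% of its spots were. Counts and medians used dim values as measured. The 9 genes and the lists were chosen with earlier results of these data known. Named genes were the 9, the listed pathway genes and markers, and the nearest neighbours in rank. Some pathway genes are not reported here. The genes around Rdh19 and the bounds against negative controls were added after the values were seen. Calculations used Python 3.11.15, pandas 2.3.3 and R 4.3.3 with limma 3.58.1 (normexp, offset 50), and were tested on simulated data. The number of arrays, 1 for each tissue, limits the precision, and no test was run. Which exon or UTR the probes lie in was not analysed here.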

Additional observations from a re-analysis of the deposited data

How the results depend on the processing

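The counts of 6 retinoid genes at least 2-fold higher in tooth and 1 in skin were the same under the 9 alternatives, except that normexp gave 5 for tooth. The settings for averaging probes, the detection filter and dim values could not change these counts. Each of these genes has 1 probe, well above background on both arrays. The median difference of -2.86 was -3.11 with a median shift, -3.49 with spike-in scaling and -2.08 with normexp. The cause was not tested beyond the shift of the median gene that the scalings bring. When a gene had to be well above background on both arrays, which leaves fewer genes, the count of 14 pathway genes higher in skin was 9 and the count of 5 higher in tooth was 3. The latter count was 8 with spike-in scaling and 3 with normexp. For the other genes past 2-fold, all 196 differences, counted over genes and alternative settings, kept their direction. Some of these differences fell within 2-fold, such as Cyp26c1 (-0.18) and Stra6 (-0.59) with normexp. For genes with 1 probe well above background on both arrays, the settings for averaging probes, filter and dim values could not move the value. No paired analysis was possible because there was 1 array per tissue, and no array could be left out. The dim skin spots of Rdh19, Rdh10, Aldh1a1 and Aldh1a2 limit how precisely their folds are known.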
